A study of Mus musculus with 48 samples.

Results

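Maturation of the wild-type (WT) mouse hippocampus between postnatal week (PWK) 1 and PWK 7 was described from bulk RNA sequencing of 8 libraries, 4 at each age, of 48 libraries in the whole series. The libraries were chosen by their labels: tissue hippocampus, genotype wild type, and age 1 week or 7 weeks. All mice were of the C57BL/6N strain, and each hippocampal library came from both hemispheres of a different mouse. The series sets WT mice beside littermates in which 1 copy of *Cyfip2*, a subunit of the actin-regulating WAVE complex, is inactivated. Other groups were used only to show where the hippocampus differed. These were frontal cortex of WT mice at PWK 1 and 7 (8 libraries), WT hippocampus at PWK 14 (4 libraries), and *Cyfip2*+/- hippocampus at PWK 1 and 7 (8 libraries). Values are normalized counts, that is, estimated reads per gene after scaling each library to a common depth. In whole tissue, fewer cells of a type and less RNA per cell cannot be told apart.

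In the first postnatal week of the mouse, the hippocampus still holds dividing progenitors, chiefly in the dentate gyrus, and its neurons are extending axons and forming their first synapses. Myelination, the wrapping of axons by oligodendrocytes, comes later, as do the closing of perineuronal nets (a matrix of hyaluronan, link proteins and proteoglycans around inhibitory neurons) and the maturing of inhibition by GABA, which turns on a low chloride concentration inside the neuron. Receptor and channel subunits are also known to be exchanged in this period, among them the NMDA receptor subunits encoded by *Grin2b*, *Grin3a* and *Grin2a*.

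The 8 libraries summed to between 30.4 and 31.6 M normalized counts. Their depth before scaling, estimated from the spacing of low values, was 28.4, 26.1, 25.5 and 35.6 M reads at PWK 1 and 35.9 to 36.2 M at PWK 7, so that low genes are less precise in 3 of the 4 younger libraries. Pairs of libraries of the same age had correlations of log2 values across genes between 0.987 and 0.991, and pairs of different ages between 0.951 and 0.964. The summed markers of hippocampal subfields were higher in every hippocampal library (47299 to 62593) than in every cortical library (27218 to 29194). The paper's methods name both sexes and the labels give none, while the Y-linked gene *Ddx3y* lay between 1413 and 1679 in all 8 libraries. The Y-linked genes *Eif2s3y* (1291 to 1981), *Kdm5d* (966 to 1269) and *Uty* (464 to 558) were also expressed throughout, so these libraries came from males. The summed markers of choroid plexus, the secretory epithelium of the ventricles, differed widely between libraries: they were 929.7, 19360, 2336 and 18424 at PWK 1 and 33561 to 84805 at PWK 7, against 282 to 1067 in cortex. Counts with this sum as a covariate, written below as the choroid plexus covariate, are given beside the counts it moved by over 1.5 times.

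Between PWK 1 and PWK 7, 9953 of 17016 genes tested (58.5%) differed at an adjusted p below 0.05 by limma with Benjamini-Hochberg adjustment, and such genes are referred to as called. Of these, 4969 genes (29.2%) were higher at PWK 7 and 4984 (29.3%) were lower. At least 2-fold changes were seen for 997 higher genes (5.86%) and 981 lower genes (5.77%), and at least 8-fold changes for 82 and 22 genes. Gains and losses were thus nearly equal in number, and the median log2 change over all genes was 0.006. The scaling of the libraries to a common depth rests on the typical gene, so this balance and this median are partly set by it. The median size of a change was 0.31 beside a typical spread between libraries of 0.12 (log2). The libraries of the 2 ages did not overlap for 53.4% of all genes tested, so a lack of overlap in a gene below is common. With the summed choroid plexus markers as a covariate, 3114 genes were called higher and 3201 lower, and 864 and 839 were at least 2-fold higher and lower. These sums did not overlap between the ages, so the covariate is confounded with age and makes the estimates less precise. A call lost with it therefore does not show a smaller change. Without the replicates 2 and 4 of PWK 1, whose choroid plexus markers were high, the counts were 4285 and 4181. Both alternatives were chosen after seeing the data. Folds given below are ratios of group means, and log2 changes are differences of mean log2 values. Counts of list members given below are to be read beside the 29.2% and 29.3% of all genes, and several lists lie near these shares.

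The annotated protein-coding genes with the largest gains, among those with a mean of at least 100, were mostly genes of myelin and its cells. *Hapln2*, a link protein of the node of Ranvier, rose by 5.90 ± 0.20 on the log2 scale (SE, n = 4 and 4), *Mal* by 5.55 ± 0.32, *Opalin* by 4.98 ± 0.70, *Ermn* by 4.84 ± 0.28, *Mobp* by 4.28 ± 0.45 and *Mog* by 4.12 ± 0.49. *Nkx6-2*, a homeobox gene of oligodendrocytes, rose by 4.13. Others in the same group were *Etnppl*, an astrocyte enzyme of phospholipid breakdown, at 4.95, *Sspo*, which encodes SCO-spondin, at 4.46, and *Sec14l5* at 4.58. Replicate 4 of PWK 1 was low for several of these, and without it the changes were 4.06 for *Opalin*, 4.36 for *Etnppl*, 3.48 for *Mog* and 3.43 for *Nkx6-2*. The PWK 1 means of *Hapln2* (9.31), *Etnppl* (9.56) and *Sspo* (11.3) lay near the minimum of 10, so the sizes of their gains are less certain. The largest losses were spread over other roles. *Mkrn3*, an imprinted gene known as a brake on puberty, had a log2 change of -4.07 ± 0.13, *Aplnr*, the apelin receptor, -3.79 ± 0.17, and *Prph*, a neuronal intermediate filament, -3.55 ± 0.14. *Dpysl3* and *Dpysl5*, collapsin response mediators of the growth cone, changed by -3.50 and -2.94. *Trim67* (-3.45), *Lefty2* (-3.43), *Nrep* (-3.09), *Igfbpl1* (-2.93) and *Cd24a* (-2.73) completed this group.

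**Figure D1:**
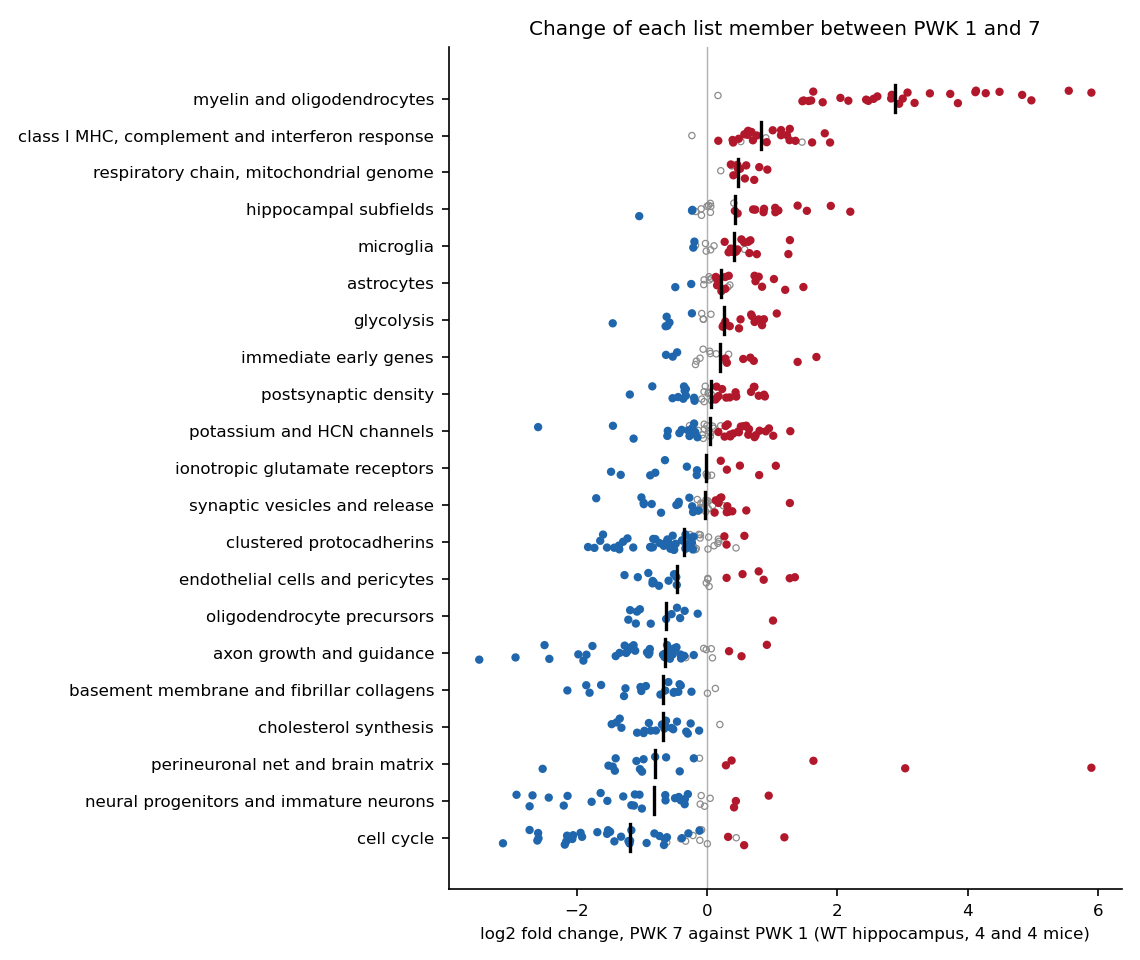
Log2 change from PWK 1 to PWK 7 (horizontal axis) for each member of 21 gene lists (rows) in WT hippocampus. Each dot is a gene, red where called higher at PWK 7, blue where called lower and open grey where not called, and the black bar is the median of the list. Myelin genes lie far to the right, with a median of 2.89, and cell cycle genes to the left, with a median of -1.18.

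Genes of cell division were mostly lower at PWK 7. Of 45 cell cycle genes tested, 33 were called lower and 3 higher, against the 29.3% and 29.2% of all genes, and 24 fell at least 2-fold. With the choroid plexus covariate 27 were called lower, and without the replicates 2 and 4 of PWK 1 there were 30. The median log2 change of the list was -1.18, beside 0.006 over all genes. *Mki67*, the standard marker of dividing cells (GRCm38 chromosome 7, 135689784 to 135716361), had normalized counts of 497, 566, 692 and 608 in the 4 libraries of PWK 1 and 91.1, 101, 91.6 and 101 at PWK 7. The ages did not overlap, and the mean was 6.13-fold lower at PWK 7, a log2 change of -2.60 ± 0.11 (limma adjusted p = 8.09e-09). *Top2a*, the topoisomerase that untangles replicated DNA, went from 426, 437, 483 and 491 to 149.6, 70.2, 125 and 109. Every library of PWK 7 therefore still held a low but measurable level of both. The kinase *Aurkb* changed by -3.14, the spindle gene *Hmmr* by -2.73, the checkpoint kinase *Bub1* by -2.61 and *Cdk1*, which starts mitosis, by -2.59. The 3 members that rose were *Anln* (1.19), which is also an oligodendrocyte gene, *Ccnd1* (0.57) and *Ccne1* (0.32), of which *Ccne1* was not called without any of 6 single libraries (0.22 to 0.34, all but the replicates 1 and 2 of PWK 1).

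The promoters of 3 of these genes are shown because each holds at least 1 of the short motifs known from cell cycle genes. Windows run from 250 bases before to 25 bases after the transcript start in RefSeq on GRCm38.p6, 5′ to 3′ on the gene's strand. Capitals mark CCAAT boxes, searched as CCAAT on both strands (ATTGG on the other), and the CHR element, searched as TTTGAA on both strands (TTCAAA on the other). The *Hmmr* window lies at chr11:40733413-40733687, minus strand, that of *Bub1*, in which CCAAT boxes but no CHR letters were found, at chr2:127831835-127832109, minus strand and that of *Mki67* at chr7:135716355-135716629, minus strand.
Hmmr: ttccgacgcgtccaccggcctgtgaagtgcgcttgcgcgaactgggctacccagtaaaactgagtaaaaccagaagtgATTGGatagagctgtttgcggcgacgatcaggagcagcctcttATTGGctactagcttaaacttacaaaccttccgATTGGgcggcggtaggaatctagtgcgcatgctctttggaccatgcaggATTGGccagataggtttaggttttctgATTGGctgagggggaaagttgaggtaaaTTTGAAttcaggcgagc
Bub1: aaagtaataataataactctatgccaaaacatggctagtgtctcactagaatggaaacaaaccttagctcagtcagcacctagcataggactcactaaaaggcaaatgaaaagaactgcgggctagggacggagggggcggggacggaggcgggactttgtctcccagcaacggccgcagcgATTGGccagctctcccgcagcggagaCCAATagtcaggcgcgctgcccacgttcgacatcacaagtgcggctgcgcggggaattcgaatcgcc
Mki67: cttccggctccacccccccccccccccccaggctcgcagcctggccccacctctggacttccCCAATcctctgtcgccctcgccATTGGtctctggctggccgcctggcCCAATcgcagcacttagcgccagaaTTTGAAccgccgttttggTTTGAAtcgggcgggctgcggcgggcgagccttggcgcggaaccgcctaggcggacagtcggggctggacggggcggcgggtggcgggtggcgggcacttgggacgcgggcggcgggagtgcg

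Of the 45 cell cycle genes, 36 had a promoter in the RefSeq table, in windows of 300 bases. A CCAAT box stood in 79.5% of the windows of these genes against 37.4% of all 32851 windows, and a CHR element in 46.2% against 17.9%. The E2F site (TTTCCCGC, TTTGGCGC, TTTCGCGC or TTTGCCGC on both strands), which was not found in the windows shown above, stood in 20.5% against 2.26%. The matches describe letters in these windows and were not tested for use.

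Markers of progenitors and newly made neurons were mostly lower. Of 30 genes of neural progenitors and immature neurons, 23 were called lower, 15 of them at least 2-fold, and 3 were called higher, with a median log2 change of -0.82. *Dcx*, a microtubule protein of migrating neurons (GRCm38 chromosome X, 143855842 to 143933311), had 5722, 4880.4, 7373 and 6865 normalized counts at PWK 1 and 920.3, 965, 908 and 1029.7 at PWK 7. It was 6.50-fold lower, and the lowest young library was far above the highest older one (log2 change -2.68 ± 0.11, adjusted p = 6.53e-09). *Eomes*, a factor of intermediate progenitors, changed by -2.14 and *Sox11*, a factor of young neurons, by -1.64. *Hes1*, a Notch target, rose by 0.94, *Neurod2* by 0.44 and *Hopx* by 0.41. *Prox1*, which marks granule cells of the dentate gyrus, had 4109, 4421, 4733 and 4042 and 4154, 4084, 4271 and 3713 normalized counts. Its ages overlapped, with a log2 change of -0.09 and a 95% interval of -0.22 to 0.04, and *Sox2* had -0.04 (-0.31 to 0.23).

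Genes of axon growth were mostly lower as well. Of 46 genes of axon growth and guidance, 38 were called lower and 3 higher, with a median log2 change of -0.65. *Dpysl3* had 23701, 20610, 32934 and 33608 normalized counts at PWK 1 and 2523, 2531, 2291 and 2254 at PWK 7, an 11.5-fold lower mean. *Gap43*, a protein of the growth cone, changed by -1.98 and *Stmn2*, which destabilizes microtubules, by -1.85. The guidance genes *Slit1* (0.92) and *Unc5a* (0.53) and the adhesion gene *Cntn2* (0.34) rose. Among 26 genes of neurofilaments and the cytoskeleton, 16 were called lower and 5 higher. *Tuba1a*, the alpha-tubulin of growing neurons (GRCm38 chromosome 15, 98949837 to 98953703), was at 123653, 114321, 140105 and 142349 and then 34860, 34541, 33305 and 36157, whereas *Tuba4a*, an alpha-tubulin of mature neurons, was at 13266, 14086, 11674 and 11946 and 13232, 13669, 12943 and 13512. The former did not overlap between the ages and fell by 3.75-fold; the latter overlapped, with a log2 change of 0.07 (-0.05 to 0.19), and was called at 0.12 without replicate 2 of PWK 1. The log2 ratio of *Tuba4a* to *Tuba1a* within a library thus rose by 1.97, and that of *Tubb4a* to *Tubb2b* by 2.59 (exact permutation p = 0.0286 for each, two-sided, the smallest that 4 against 4 libraries allow). *Tubb2b*, the beta-tubulin of growing neurons, fell by 5.71-fold. *Tuba8* (0.95), the spectrin *Sptb* (0.79) and *Map1a* (0.44) rose, and the ratio of *Map2* to *Map1b* rose by 0.57 (exact p = 0.0286). The ratio of the neurofilament gene *Nefh* to *Ina* changed by 0.10 (exact p = 0.114).

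Myelin genes rose steeply. Of 30 genes of myelin and oligodendrocytes, 29 were called higher and all 29 rose at least 2-fold, with a median log2 change of 2.89. *Mbp*, myelin basic protein, had 18703, 25994, 13407 and 6523 normalized counts at PWK 1 and 104275, 96276, 108894 and 100692 at PWK 7. The ages were far apart, and the mean rose 6.35-fold (log2 change 2.83 ± 0.31, adjusted p = 1.18e-05). *Mog*, a protein of the outer myelin surface, rose from 188, 272, 123 and 31.0 to 2093, 2014, 2156 and 2041. Replicate 2 held the highest level and replicate 4 the lowest of PWK 1 for both genes. *Sox10*, the lineage factor that precursors and mature cells share, had a log2 change of 0.17 (0.01 to 0.32) and was the member not called, although it was called at 0.20 without replicate 2 of PWK 1 or replicate 4 of PWK 7. The list summed to 27253 to 70162 at PWK 1 and 288504 to 326938 at PWK 7. The choroid plexus markers differed in the same direction, and 29 members were called higher both with those markers as a covariate and without the replicates 2 and 4 of PWK 1.

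Precursors of these cells moved the other way. Of 13 genes of oligodendrocyte precursors, 12 were called lower and 1 higher, with a median of -0.63. *Pdgfra*, the growth factor receptor of precursors, had 4414, 4342, 4909 and 4845 and 2085, 2053, 2317 and 2313 normalized counts, a 2.11-fold lower mean with no overlap. *Gpr17*, which marks cells about to differentiate, was at 7040.5, 6953, 5909 and 5771 and 3065, 2873, 2573 and 2563, *Lhfpl3* changed by -1.18 and *Ptprz1* by -1.10. *Bcas1*, found in cells that begin to myelinate, rose by 1.01. The log2 ratio of *Mbp* to *Pdgfra* within a library rose by 3.91 (exact permutation p = 0.0286).

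**Figure D2:**
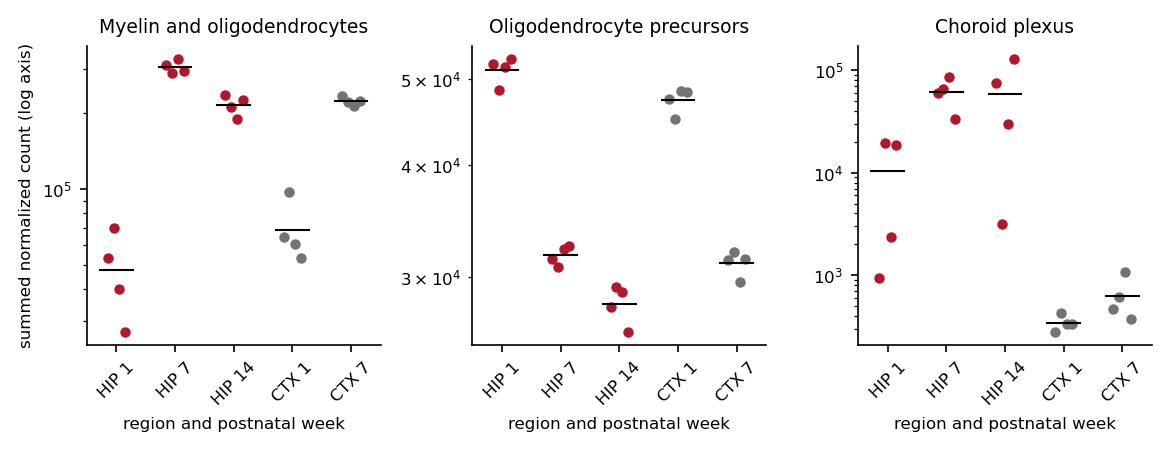
Summed normalized counts (log axis) of the marker lists of myelin and oligodendrocytes, oligodendrocyte precursors and choroid plexus in each WT library, for hippocampus at PWK 1, 7 and 14 and cortex at PWK 1 and 7. Points are libraries and bars are group means. Myelin sums rise from PWK 1 to PWK 7 in both regions. In hippocampus they are lower at PWK 14 (188579 to 236129) than at PWK 7 (288504 to 326938). The hippocampal choroid plexus sums spread from 929.7 to 19360 within PWK 1, and the cortical ones do not exceed 1067.

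Astrocyte and microglia markers were more often higher than lower. Of 25 astrocyte genes, 15 were called higher and 2 lower (median 0.22), and of 22 microglia genes, 14 were called higher and 2 lower (median 0.42), with 10 and 1 under the choroid plexus covariate. *Gjb6*, a gap junction protein of mature astrocytes, rose by 1.48 ± 0.09, *S100b* by 1.20 and *Clu* by 1.02. The water channel *Aqp4* (-0.49) and the glutamate transporter *Slc1a3* (-0.24) fell. Among microglia genes, the protease gene *Ctss* rose by 1.27 ± 0.08, *Selplg* by 1.25 and the complement gene *C1qb* by 0.76. The homeostatic receptor *P2ry12* (-0.20) fell, the factor *Sall1* (-0.21) was called lower but not without replicate 1 or 4 of PWK 1 or replicate 4 of PWK 7 (-0.20 to -0.16), and *Cx3cr1* had -0.01 (-0.15 to 0.12). The 2 glial lists therefore held members that moved in both directions.

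Vessel genes moved in both directions. Of 22 genes of endothelial cells and pericytes, 12 were called lower and 6 higher, with a median of -0.47. The growth receptor *Kdr* fell by 2.39-fold, and the pericyte genes *Higd1b* (-1.06) and *Kcnj8* (-0.90) were lower. The transporters of the blood-brain barrier *Slco1a4* (1.27) and *Abcb1a* (0.87) and the surface gene *Ly6c1* (1.35) rose, and *Pecam1* had -0.01 (-0.18 to 0.15). All 18 called genes of 20 in basement membrane and fibrillar collagens were lower, with *Nid1* at -1.86, *Lama4* at -1.81 and *Col3a1* at -2.15, although 1 was higher and 17 lower without replicate 4 of PWK 1. Of 15 genes of meninges and fibroblasts, 5 were lower, all 3 at least 2-fold ones being collagens (*Col3a1*, *Col1a2* at -1.02 and *Col1a1* at -1.01), and 3 were higher, *Ptgds* (1.49), *Mgp* (1.30) and *Ogn* (1.08). The counts were 3 lower and 2 higher with the choroid plexus covariate, and 5 were higher without replicate 4 of PWK 1 or replicate 4 of PWK 7. Of 6 blood cell markers, 0 were called by limma and 1 had an unadjusted p below 0.05, but 1 was called lower without replicate 2 or 3 of PWK 1 or replicate 3 of PWK 7, and 2 were called higher without replicate 4 of PWK 7.

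Choroid plexus and ependymal genes were higher at PWK 7 in uneven steps. All 15 choroid plexus genes were called, with a median of 3.03. *Ttr*, transthyretin, the most abundant secreted protein of this epithelium, had 208, 17071, 1500.3 and 16236 normalized counts at PWK 1 and 49244, 55480.4, 72623 and 27802 at PWK 7. The libraries of PWK 1 fell into a low pair and a high pair, and the log2 change was 3.99 ± 1.13. With the summed choroid plexus markers as a covariate, 6 of the 15 were called higher and 1 lower, with a median of 0.78, and *Ttr* had a log2 change of -0.70. These values are largely set by construction, since the covariate is the sum of the same genes and *Ttr* is most of it in every library but replicate 1 of PWK 1. *Slc4a5* (4.06) and *Clic6* (3.81) changed most beside *Ttr*, and the lineage factor *Otx2* rose by 3.03. Without replicate 1 of PWK 1 the changes were 2.70 for *Ttr*, 3.06 for *Clic6* and 3.44 for *Slc4a5*, and without replicate 2 or replicate 4 of PWK 1 that of *Ttr* was 4.82 or 4.79, with *Slc4a5* at 4.66 without the latter. Of 12 ependymal genes, 8 were higher, among them *Rsph1* (0.99), *Cfap126* (0.96) and *Tekt1* (0.84), all genes of motile cilia, and none was lower. The counts were 4 higher with all 48 libraries in 1 model, and 5 higher and 1 lower without the replicates 2 and 4 of PWK 1.

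Ionotropic glutamate receptors changed by subunit, not as a class. Of 17 tested, 5 were called higher and 8 lower (5 and 5 with the choroid plexus covariate), with a median of -0.02. The main counts are 29.4% and 47.1% of the list, beside 29.2% and 29.3% of all genes. *Grin2a*, an NMDA receptor subunit of mature synapses (GRCm38 chromosome 16, 9567898 to 9995560), had 5858, 6398, 5239 and 4818 normalized counts at PWK 1 and 11752, 11844, 11244 and 11229 at PWK 7. *Grin2b*, the subunit of young synapses (GRCm38 chromosome 6, 135713233 to 136173511), had 22681, 22783, 23999.8 and 21747 and 22779, 24274, 21086 and 23370.2. *Grin3a*, a subunit that lowers calcium entry in young neurons, had 3539, 3275, 3794 and 3982 and 1339.7, 1257, 1179.9 and 1468. *Grin2a* therefore rose 2.06-fold (log2 change 1.05 ± 0.07, adjusted p = 2.76e-07), *Grin3a* fell by 2.78-fold (adjusted p = 2.66e-08), and *Grin2b* showed a log2 change of 0.00 with a 95% interval of -0.10 to 0.11. The log2 ratio of *Grin2a* to *Grin2b* rose from -2.04 to -0.99 without overlap (exact permutation p = 0.0286). *Grin2c* (0.80) and the AMPA receptor subunit *Gria3* (0.50) rose, *Grin2d* (-1.33) fell, and the obligatory subunit *Grin1* had 0.07 (-0.01 to 0.15), or 0.10 and a call without replicate 2 of PWK 1. The ratio of *Gria1* to *Gria4* rose by 0.61 (exact p = 0.0286).

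**Figure D3:**
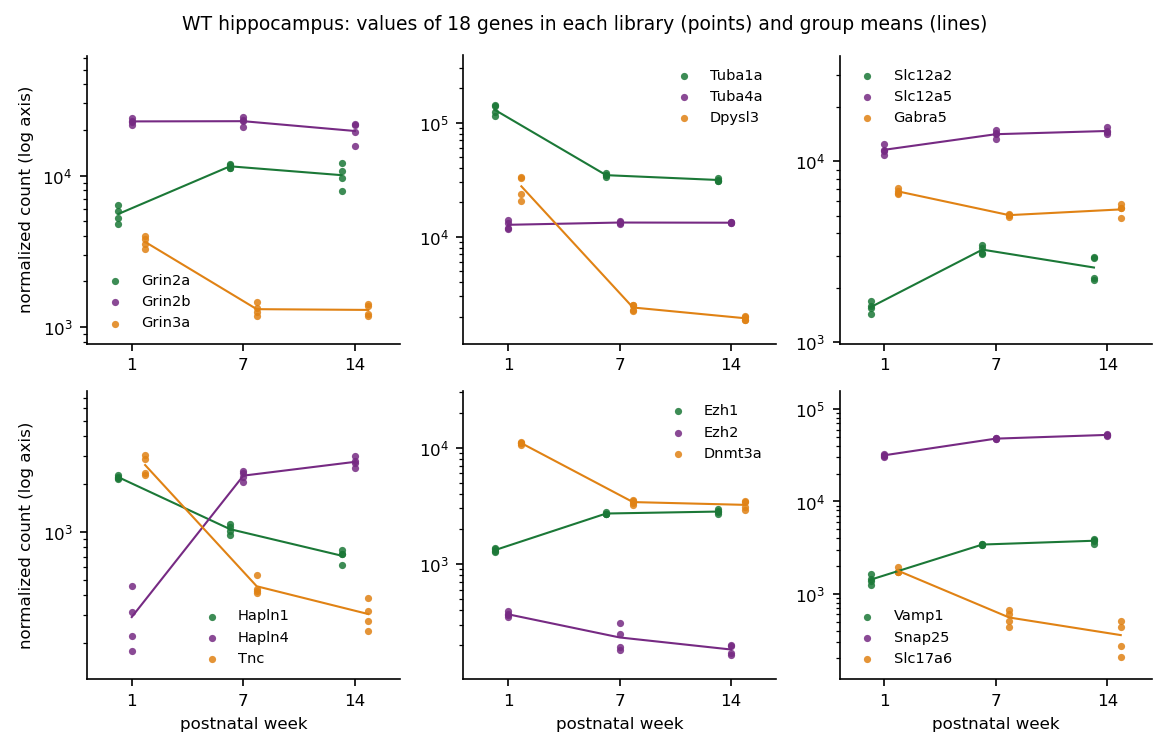
Normalized counts (log axis) of 18 genes in each WT hippocampal library at PWK 1, 7 and 14, in 6 panels of related genes. Points are libraries and lines join group means. *Grin2a* rises by 1.05 and *Grin3a* falls by 1.48 (log2) between PWK 1 and 7 while the libraries of *Grin2b* and *Tuba4a* overlap between those ages, and *Tuba1a* falls.

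Genes that accompany AMPA receptors fell more often than they rose, with 8 of 17 called lower (5 with the choroid plexus covariate) and 3 higher. *Cacng4*, a transmembrane AMPA receptor regulatory protein, had 1917, 1746, 1955 and 2342 and 641, 651, 678 and 649.6 normalized counts, 3.04-fold lower at PWK 7. *Olfm2* (-1.42) and *Cacng5* (-1.04) were lower too, and the ratio of *Cacng3* to *Cacng4* rose by 1.61 (exact p = 0.0286). *Nptx1*, a pentraxin that gathers AMPA receptors, rose by 1.28 ± 0.07, *Shisa7* by 0.46 and *Cacng7* by 0.33. Of 7 metabotropic receptors, *Grm4* (-0.97), *Grm8* (-0.57) and *Grm5* (-0.15) fell, and 1 was called lower with the choroid plexus covariate.

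GABA-A receptors likewise changed by subunit. Of 14 tested, 4 were higher (28.6%) and 6 lower (42.9%), beside 29.2% and 29.3% of all genes. *Gabra5*, the subunit of tonic currents in hippocampal pyramidal cells, had 6609, 6711, 7078 and 6879 normalized counts at PWK 1 and 5109.6, 4911, 5041 and 5066 at PWK 7. The ages did not overlap, and the log2 change was -0.44 ± 0.03 (adjusted p = 7.72e-07). *Gabrd*, an extrasynaptic subunit (0.75), *Gabrb1* (0.58) and *Gabra4* (0.46) rose most. *Gabrq* (-2.12), *Gabrg3* (-0.93) and *Gabra3* (-0.64) fell most. Of 4 glycine receptor genes, *Glra2*, the fetal alpha subunit, fell by 3.77-fold and the anchor *Gphn* changed by -0.33, and the ratio of *Glra3* to *Glra2* rose by 2.28 (exact p = 0.0286). Without replicate 4 of PWK 1 or replicate 1 of PWK 7, 1 of these genes was called higher.

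The chloride transporters both rose. *Slc12a5* encodes KCC2, which carries chloride out of neurons (GRCm38 chromosome 2, 164960802 to 164999731), and had 11571, 12530, 11405 and 10788 and then 14084, 14831, 13205 and 14368 normalized counts. *Slc12a2* encodes NKCC1, which carries chloride in and is also used by oligodendrocytes and choroid plexus, and had 1573, 1678, 1434 and 1548 and then 3124, 3069, 3457 and 3316. *Slc12a2* rose more (log2 change 1.06 ± 0.06) than *Slc12a5* (0.29 ± 0.05), so the within-library log2 ratio of *Slc12a5* to *Slc12a2* fell by 0.77 (exact permutation p = 0.0286). *Gad1*, which makes GABA, rose by 0.42 and the chloride channel *Clcn2* by 0.42. The GABA transporter *Slc6a11* (-0.62) and the vesicular transporter *Slc32a1* (-0.28) fell.

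Interneuron markers moved in both directions. Of 25, 8 were called higher and 12 lower (7 and 7 with the choroid plexus covariate), with a median of -0.24. *Pvalb*, the calcium buffer of fast-spiking interneurons (GRCm38 chromosome 15, 78191114 to 78206400), rose from 97.1, 139, 76.2 and 69.9 to 551, 572, 595 and 610.0 normalized counts. The mean was 6.08-fold higher with no overlap (log2 change 2.64 ± 0.18, adjusted p = 2.41e-07). *Lamp5* (0.94) and *Nos1* (0.88) rose as well. *Reln*, made by Cajal-Retzius cells and by interneurons, fell by 2.71-fold, *Tac1* changed by -1.37 and *Calb2* by -1.29. The peptides *Sst* (-0.11, -0.23 to 0.01) and *Npy* (-0.04, -0.19 to 0.11) were not called, although *Sst* was called at -0.14 without replicate 2 of PWK 1 or replicate 4 of PWK 7.

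Genes of the matrix around neurons were more often lower than higher. Of 19 genes of perineuronal nets and brain matrix, 13 were lower, 8 of them at least 2-fold, and 5 higher. *Hapln4*, a link protein of mature nets, had 312, 456, 221 and 178 normalized counts at PWK 1 and 2348, 2420.3, 2067 and 2214 at PWK 7. *Hapln1*, a link protein made earlier in development, had 2156, 2286, 2173 and 2234 and 965, 1074, 1015 and 1116. *Hapln4* rose 7.75-fold while *Hapln1* fell by 2.12-fold, and their log2 ratio rose by 4.13 (exact permutation p = 0.0286). *Tnc*, tenascin C of immature matrix, went from 2289, 2335, 2890.3 and 3036 to 439, 429, 416 and 539.7, a 5.79-fold lower mean. The proteoglycans *Ncan* (-1.52) and *Acan* (-0.42) fell and the ratio of *Bcan* to *Vcan* rose by 0.79 (exact p = 0.0286). *Adamts4*, a protease that cuts them, rose by 1.63.

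Voltage-gated sodium channel genes moved in both directions. Of 13 sodium channel genes, 5 were higher and 5 lower (4 and 3 with the choroid plexus covariate). *Scn4b*, a beta subunit of fast-firing neurons, had 155, 226, 166 and 89.6 and then 695, 788, 695 and 686 normalized counts, 4.50-fold higher at PWK 7. *Scn2b* (1.10) also rose. *Fgf13* (-1.15), which binds these channels, and *Scn3a* (-0.48), the embryonic alpha subunit, fell. The log2 ratio of *Scn1a* to *Scn3a* rose by 0.83 and that of *Scn8a* to *Scn2a* by 0.55 (exact permutation p = 0.0286 for each).

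Of 49 potassium and HCN channel genes, 21 were called higher and 14 lower (17 and 7 with the choroid plexus covariate), with a median of 0.05. *Kcnab2*, a beta subunit, rose from 7543, 8397, 7538 and 6790.3 to 18439, 18331, 18384 and 17959.9, the fast-spiking channel gene *Kcnc1* by 1.01 and *Kcnj6* by 0.95. *Hcn4*, a slow pacemaker channel, fell from 363, 368, 447 and 493 to 47.9, 87.2, 56.6 and 88.6, 5.96-fold. The groups of *Kcnab2* and *Hcn4* did not overlap. *Hcn3* (-1.45) and *Kcnip1* (-1.13) were lower. Of 15 calcium channel genes, 3 were higher, *Cacna1e* (0.62), *Cacnb2* (0.42) and *Cacnb3* (0.20), and 4 lower, led by the T-type channel *Cacna1g* (-1.07), *Cacna1b* (-0.53) and *Cacna2d3* (-0.48).

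Of 40 synaptic vesicle genes, 11 were called higher and 13 lower (7 and 10 with the choroid plexus covariate), with a median of -0.03. Both counts are near the shares of all genes tested, 29.2% higher and 29.3% lower. *Vamp1*, a vesicle SNARE of fast synapses, rose from 1462, 1635, 1363 and 1234 to 3337, 3349.5, 3476 and 3503 normalized counts. *Snap25*, its partner on the membrane, rose from 31327, 32916, 30188 and 32147 to 47914, 48220.1, 47104 and 48568. *Slc17a6*, the vesicular glutamate transporter VGLUT2, fell from 1957, 1707, 1739 and 1742 to 509.6, 605, 438 and 662. None of the 3 overlapped between the ages, with folds of 2.40 up, 1.52 up and 3.23 down. The log2 ratio of *Vamp1* to *Vamp2* rose by 1.35 and that of *Slc17a7* (VGLUT1) to *Slc17a6* by 1.70 (exact permutation p = 0.0286 for each), the latter with *Slc17a7* at 0.00 (-0.09 to 0.08). *Dnm1*, which pinches off vesicles, rose by 0.39, and *Stx1a* (-1.01) and *Rab3b* (-0.98) fell. *Syp*, synaptophysin, had -0.06 (-0.16 to 0.03), and the ratio of *Cplx1* to *Cplx2* changed by 0.02 (exact p = 0.743).

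Of 35 genes of the postsynaptic density, 16 were higher and 11 lower. *Camk2a*, the calcium-dependent kinase of mature excitatory synapses, had 78685, 90249, 80599.7 and 72712 and 133476, 131447, 133220 and 129922 normalized counts, a rise of 0.72 ± 0.06 on the log2 scale. Its ratio to *Camk2b* rose by 0.49 (exact p = 0.0286). *Baiap2* (0.89), *Homer3* (0.87) and *Ppp1r9b* (0.79), which link receptors and actin, rose most. *Camk4* (-1.19), *Camk2d* (-0.84) and the scaffold *Dlg2* (-0.53) fell most, while the scaffold *Dlg4*, PSD-95, had 0.06 (-0.02 to 0.15) and its ratio to *Dlg3* changed by 0.00 (exact p = 0.8).

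Immediate early genes, which neurons switch on within minutes of activity, were uneven between mice. Of 20, 7 were higher and 3 lower, with a median of 0.20. Without replicate 4 of PWK 7, 7 were higher and 6 lower and the median was -0.06, and with the choroid plexus covariate 6 were higher and 1 lower. *Arc*, a regulator of AMPA receptor removal, had 1867, 1883, 1531 and 1451 at PWK 1 and 3859.7, 3821, 3191 and 7803 at PWK 7, where replicate 4 was far above the others. Its log2 change was 1.39 ± 0.22, with adjusted p = 0.000217. *Fosb* (1.68) and *Junb* (0.72, or 0.47 without replicate 4 of PWK 7) rose, and *Nr4a3* (-0.63), *Ier2* (-0.53) and *Nr4a2* (-0.46) fell. *Bdnf*, the neurotrophin, had 1336, 1298, 1212 and 1234 and 1287, 1212, 1130.5 and 1239.6, with overlapping ages and a log2 change of -0.06 (-0.18 to 0.06). The cAMP response element, searched as TGACGTCA on both strands, stood in the windows of 2 of the 16 genes with a promoter in RefSeq, and the CArG box in those of 1. The shares of windows were 7.69% against 1.79% of all windows for the former and 15.4% against 1.63% for the latter. The 4 windows with a CArG box all belong to 1 gene, 6.25% of the genes, so its share of windows is not a share of genes.

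RNA of the genes of cholesterol synthesis fell almost as a whole. Of 22 enzymes and regulators, 21 were called lower, 5 of them at least 2-fold, and none higher, with a median log2 change of -0.68. The count was 20 both with the choroid plexus covariate and without the replicates 2 and 4 of PWK 1. *Hmgcs1*, an enzyme of the first steps of the pathway (GRCm38 chromosome 13, 119690379 to 119708260), had 18939, 18079, 19573 and 20912 normalized counts at PWK 1 and 7267, 7505, 7651 and 8717 at PWK 7. It fell without overlap, by 2.49-fold (adjusted p = 1.33e-08). *Sqle* changed by -1.39 and *Mvd* by -1.34, and *Ebp* had 0.19 (0.01 to 0.38), or 0.25 and a call without replicate 2 of PWK 1. The list summed to 70008 to 76781 at PWK 1 and 38658 to 44117 at PWK 7, in the weeks in which the myelin list rose. A link between these lists was not tested. The promoter of *Hmgcs1* is shown because it alone, of 16 genes of the list with a promoter in RefSeq, held the sterol regulatory element, searched as TCACNCCAC on both strands and found in 1.24% of all windows. It lies at chr13:119690101-119690375, plus strand, with the same span as the windows above, and capitals mark the element.
Hmgcs1: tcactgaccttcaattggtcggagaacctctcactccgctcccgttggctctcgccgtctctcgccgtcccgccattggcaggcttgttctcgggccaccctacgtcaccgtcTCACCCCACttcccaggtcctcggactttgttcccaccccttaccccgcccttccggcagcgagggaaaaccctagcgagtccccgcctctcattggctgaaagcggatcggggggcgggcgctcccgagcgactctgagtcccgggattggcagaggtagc

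Energy genes shifted in smaller steps. Of 24 glycolysis genes, 14 were higher and 6 lower, with a median of 0.25. *Pdk2* (1.07), the aldolase genes *Aldoa* (0.87) and *Aldoc* (0.84), the latter of astrocytes, and the glucose transporter *Slc2a1* (0.79) rose. The log2 ratio of *Aldoc* to *Aldoa* changed by -0.03 (exact permutation p = 0.543). *Slc16a1* (-1.45), which carries lactate and ketone bodies, *Hk2* (-0.64) and *Ldha* (-0.62) fell, and the log2 ratio of *Ldhb* to *Ldha* rose by 1.13 (exact permutation p = 0.0286). Respiratory chain genes of the nucleus were called lower in 27 and higher in 12 of 76 (22 and 6 with the choroid plexus covariate), none by 2-fold, whereas 10 of 13 genes of the mitochondrial genome were higher and none lower, led by *mt-Nd6* (0.92), *mt-Nd3* (0.80) and *mt-Nd2* (0.72). Of 75 ribosomal protein genes, 33 were lower and 14 higher (25 and 5 with the choroid plexus covariate), from -0.83 for *Rplp0*, -0.79 for *Rps2* and -0.64 for *Rpl5* to 0.46 for *Rps21*. Many of these have processed copies that share reads, so that single values are uncertain.

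Chromatin regulators moved in both directions. Of 30 genes of DNA methylation and Polycomb, 11 were higher and 13 lower. *Dnmt3a*, which writes new DNA methylation (GRCm38 chromosome 12, 3806007 to 3914443), had 10564, 10880, 10929.9 and 11259 normalized counts at PWK 1 and 3536, 3362, 3183 and 3494 at PWK 7, 3.21-fold lower. *Ezh1*, the Polycomb methyltransferase of resting cells (GRCm38 chromosome 11, 101191115 to 101226463), had 1278, 1331, 1364 and 1255 and 2676, 2803, 2675 and 2668. *Ezh2*, its paralog of dividing cells, had 389, 359, 371 and 351 and 246, 310.4, 179.6 and 192. None of the 3 overlapped, and the log2 ratio of *Ezh1* to *Ezh2* rose by 1.74 while that of *Dnmt3a* to *Dnmt1* fell by 1.18 (exact permutation p = 0.0286 for each). *Cbx7*, a reader of the Polycomb mark, rose from 467, 462, 436 and 446 to 1631, 1602, 1653 and 1695, and *Hdac11* by 0.57. *Uhrf1* (-1.52) and *Tet1* (-1.42) fell. The subunits that neurons exchange in the BAF remodelling complex had small changes: *Actl6b* changed by -0.33 and *Actl6a* by 0.22, and their log2 ratio fell by 0.56 (exact p = 0.0286). *Actl6a* was not called without replicate 2 or 4 of PWK 1 or replicate 1 or 3 of PWK 7 (0.17 to 0.22), nor with the choroid plexus covariate (0.30).

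Of 28 RNA-binding and splicing regulators, 9 were higher (5 with the choroid plexus covariate) and 12 lower. The main counts are 32.1% and 42.9% of the list, beside 29.2% and 29.3% of all genes. *Igf2bp3*, an oncofetal mRNA-binding protein with a low mean of 32.6 at PWK 1 and 3.04 at PWK 7, changed by -3.39 ± 0.54, *Elavl4* by -0.84 and *Nova1* by -0.52. *Mbnl2* (0.55), *Mbnl1* (0.40) and *Rbfox1* (0.28), splicing factors of mature neurons, rose. The ratio of *Celf4* to *Celf1* fell by 0.14 (exact p = 0.0286), and that of *Ptbp2* to *Ptbp1* changed by -0.18 (exact p = 0.0571).

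Imprinted and growth genes held some of the steepest falls. Of 28 imprinted genes, 13 were lower and 7 higher. *Mkrn3* (GRCm38 chromosome 7, 62417593 to 62420139) had 594, 513, 590.4 and 590.1 normalized counts at PWK 1 and 37.9, 27.9, 29.6 and 37.9 at PWK 7, 17.1-fold lower. *H19*, a noncoding RNA of fetal tissues, had 186, 143, 155 and 273 and 26.7, 19, 15.3 and 9.78. Both were far apart between the ages, and *Magel2* changed by -1.87. *Dlk1* (2.45), *Kcnq1ot1* (0.69) and *Zrsr1* (0.50) rose, and *Igf2* had -0.17 (-0.54 to 0.20). *Igf1*, insulin-like growth factor 1 (GRCm38 chromosome 10, 87858265 to 87937042), went from 769, 728, 771 and 738 to 256, 321, 229.6 and 251, 2.84-fold lower with no overlap, and its ratio to *Igf2* fell by 1.35 (exact permutation p = 0.0286). Its binding protein *Igfbp6* rose by 1.72, the receptors *Igf1r* (0.36) and *Ntrk2* (0.39) rose, and *Ngfr* (-0.62) and *Igfbp3* (-0.56) fell. Of 20 genes of the response to glucocorticoid and thyroid hormone, 9 were higher (5 with the choroid plexus covariate) and 5 lower. *Dio3* (1.11), which inactivates thyroid hormone, the clock gene *Dbp* (0.90) and *Fkbp5* (0.90), a glucocorticoid target, rose, and *Crhr1* (-0.99) and *Hr* (-0.70) fell. The glucocorticoid receptor *Nr3c1* had 0.02 (-0.10 to 0.13).

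The gene inactivated in the littermates rose with age in WT hippocampus. *Cyfip2* (GRCm38 chromosome 11, 46193850 to 46312859) had 16944, 17408, 16615 and 15701 normalized counts at PWK 1 and 25227, 25736, 24342 and 25858 at PWK 7, a rise of 1.52-fold (log2 change 0.60 ± 0.04, adjusted p = 1.58e-07). Its paralog *Cyfip1* had 4017, 3876, 3807 and 4017 and 4312, 3985, 4021 and 4035. The ages of *Cyfip2* did not overlap, those of *Cyfip1* had a log2 change of 0.06 (-0.03 to 0.14), and the ratio of *Cyfip2* to *Cyfip1* rose by 0.55 (exact permutation p = 0.0286). Of 13 WAVE complex genes, *Wasf3* (0.39) and *Nckap1* (0.21) also rose, and *Abi2* (-0.35) and *Rac1* (-0.14) fell. In this list 3 were called higher and 3 lower, 23.1% each, beside 29.2% and 29.3% of all genes. The largest change was that of *Rac3*, a small GTPase upstream of the complex in growing neurons, from 1822, 1554, 2158 and 2260.1 to 388, 348, 357 and 382. The ratio of *Wasf1* to *Wasf2* changed by 0.00 (exact p = 0.971). Of 44 genes of infantile and early epilepsies, 18 were higher and 15 lower, with a median of 0.01. *Grin2a*, *Slc2a1* and *Cacna1e* rose most, and *Grin2d*, the citrate transporter *Slc13a5* (-1.03) and *Tbc1d24* (-0.62) fell most.

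Clustered protocadherins were mostly lower and class I MHC genes mostly higher. Of 57 clustered protocadherins, the adhesion proteins by which a neuron knows its own branches, 37 were lower and 3 higher (24 and 1 with the choroid plexus covariate), with a median of -0.35, and 5 were higher without replicate 3 of PWK 1. *Pcdha1* (-1.83) and *Pcdha8* (-1.73) fell most, and *Pcdhgc5* (0.57), *Pcdhgb7* (0.30) and *Pcdhb16* (0.26) rose, the last of these not without replicate 1, 2 or 4 of PWK 1 or replicate 4 of PWK 7 (0.21 to 0.25). Members of the alpha and gamma clusters share their last exons, so the split between them is uncertain. Of 26 genes of class I MHC, complement and the interferon response, 22 were higher, 10 of them at least 2-fold, and none lower, with a median of 0.83. *H2-K1*, a class I antigen-presenting molecule, had 344, 334, 384 and 369 and 691, 649.7, 869 and 682, 2.02-fold higher with no overlap. *Ifit1* (1.89), *H2-Q6* (1.81), whose reads near copies share, *Ifit3* (1.61) and the complement gene *C4b* (1.27) rose too, while *Tap1* had -0.23 (-0.58 to 0.11). *H2-Q6* lay near the floor, with means of 3.87 at PWK 1 and 14.9 at PWK 7. With the choroid plexus markers as a covariate, 17 members were called higher.

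Markers of the hippocampal subfields were more often higher than lower, and those of neighbouring regions more often lower. Of 25 subfield genes, 13 were higher, 7 of them at least 2-fold, and 3 lower, with a median of 0.42, and 11 were higher and 1 lower with the choroid plexus covariate. *C1ql2*, a synaptic organizer of dentate granule cells (GRCm38 chromosome 1, 120340582 to 120343174), had 442, 496, 388 and 359 normalized counts at PWK 1 and 1837, 1937, 2218 and 1724 at PWK 7. *Dsp*, desmoplakin, also of granule cells, had 535, 689.7, 594 and 425 and 2166, 2219, 2140.3 and 1754. Neither overlapped between the ages, with folds of 4.58 and 3.69. *Trpc6* (1.53) and *Lct* (1.39), 2 further dentate genes, rose, and *Cacng5* (-1.04), *Pou3f1* (-0.23) and *Mpped1* (-0.23) fell. Of 16 genes of neighbouring regions, 7 were lower, among them *Rspo1* (-1.37) and *Calb2*, and *Tnnt1* (1.04) was higher, though not called without replicate 3 or 4 of PWK 1 or replicate 2, 3 or 4 of PWK 7 (0.73 to 1.05), nor with the choroid plexus covariate, and 2 were higher without replicate 2 of PWK 1. This list summed to 8721 to 9253 at PWK 1 and 5695 to 6637 at PWK 7.

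The change with age differed between hippocampus and cortex of WT mice for 2864 of 17686 genes (limma interaction contrast, adjusted p below 0.05). The hippocampal change lay above the cortical one for 1303 genes (7.37%) and below it for 1561 (8.83%), and 287 genes were called in opposite directions in the 2 regions. These counts treat all libraries as independent, and a block for mouse gave 3689 calls. In the subfield list, 13 of 25 genes lay above and 3 below. *C1ql2* rose by 2.20 in hippocampus and changed by -0.44 in cortex, a difference of 2.64 ± 0.20 (adjusted p = 1.32e-07). For *Dsp* the changes were 1.90 and -1.37, and for *Adcy1*, the calcium-stimulated adenylyl cyclase, 0.47 and -0.50. *Adcy1* had 27318, 26054, 25227 and 25067 and 35579, 38019.7, 35239 and 35095 in hippocampus, without overlap, and 51968 ± 3144 and 36807 ± 1432 (mean ± SD, n = 4) in cortex. The genes with the smallest p above the cortex included *Doc2b* (0.19 and -1.76), *Olfml2b* (0.94 and -0.87), *Rfx3* (0.49 and -0.85), *Slc29a4* (-0.50 and -2.90) and *Slit1* (0.92 and -0.26).

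Genes with the opposite difference gained less, or fell, in hippocampus. *Cbln2*, a synaptic organizer, changed by -1.33 in hippocampus and 0.88 in cortex, and *Igsf9b*, an adhesion protein of inhibitory synapses, by -0.98 and 0.84. *Rnf39* (-0.43 and 2.91, the hippocampal change not called without replicate 1 or 2 of PWK 1 or replicate 1 of PWK 7, at -0.41 to -0.33), *Plxdc1* (0.45 and 2.44), *Ptgfrn* (-1.26 and 0.01), *Nell1* (-0.59 and 0.59), *Prkar1b* (-0.16 and 0.64) and *Tsnax* (0.56 and 1.28) had the smallest p. Among genes described above, *Bdnf* changed by -0.06 in hippocampus and 1.20 in cortex (difference -1.26 ± 0.14), *Arc* by 1.39 and 2.67 (-1.28 ± 0.37), *Pvalb* by 2.64 and 3.88 (-1.23 ± 0.39) and *Snap25* by 0.60 and 1.25 (-0.65 ± 0.07).

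By list, 19 of 49 potassium and HCN channels, 18 of 40 vesicle genes and 7 of 20 immediate early genes had a hippocampal change below the cortical one, and 4, 4 and 1 had one above it. Of myelin genes, 12 of 30 gained more in hippocampus and none less, with medians of 2.89 and 1.89. Choroid plexus markers had medians of 3.03 and 0.43 in the 2 regions, and 12 of 15 differed. Ribosomal protein genes were above the cortical change in 21 of 75 and below it in none. *Gabra5* fell more in cortex (-1.24) than in hippocampus (-0.44), with a difference of 0.80 ± 0.07.

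**Figure D4:**
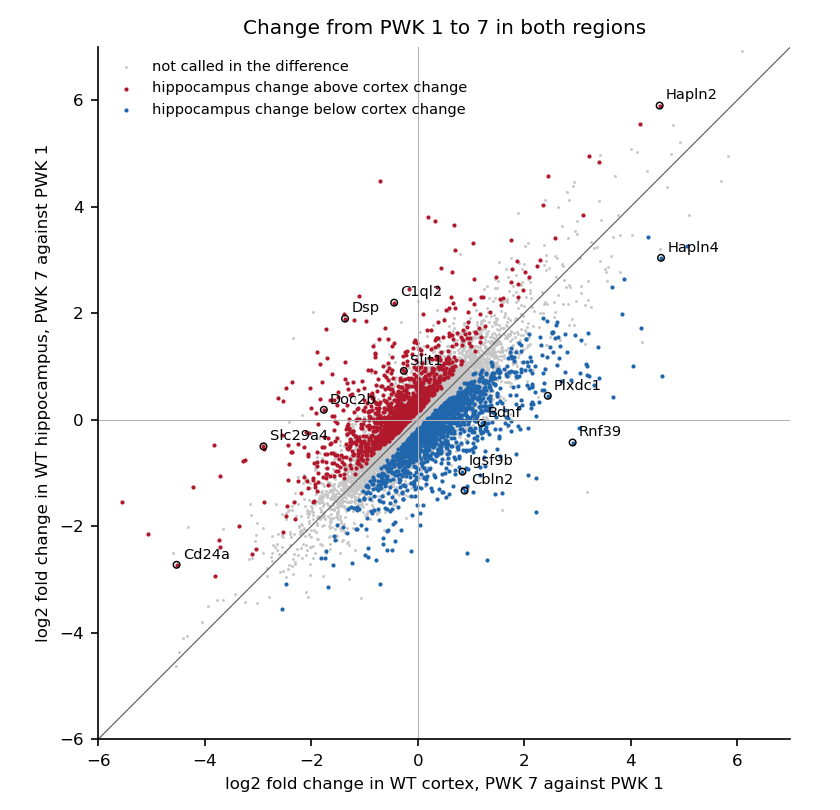
Log2 change from PWK 1 to PWK 7 in WT hippocampus (vertical axis) against WT cortex (horizontal axis) for 16447 genes, with 1 gene outside the axes. Red and blue points were called in the test of the difference, above and below the cortical change. *C1ql2* lies high above the diagonal, at 2.20 in hippocampus and -0.44 in cortex.

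Far fewer genes were called after PWK 7. Between PWK 14 and PWK 7, which share the libraries of PWK 7 with the comparison above, 84 of 16922 genes (0.496%) were called, 12 higher and 72 lower, and 2641 had an unadjusted p below 0.05. The count was 19 without replicate 1 or replicate 2 of PWK 7, 16 without replicate 3 of PWK 7 and 42 without replicate 1 of PWK 14, and it was 811 with all 48 libraries in 1 model. Myelin genes had 13 members lower and none higher at PWK 14. *Mal* had 10561, 9474, 10792 and 10303 normalized counts at PWK 7 and 6026, 6138, 4960.0 and 5902 at PWK 14, against 309.6, 399.8, 183 and 99.3 at PWK 1. The level at PWK 14 was below that of PWK 7 in every library and far above that of PWK 1, with log2 changes of 5.55 to PWK 7 and -0.84 from PWK 7 to PWK 14 (limma adjusted p = 0.000665). *Mbp* had log2 changes of 2.83 and -0.54 (adjusted p = 0.00616 for the latter), and *Mog* 4.12 and -0.79. *Dpysl3* had -3.50 and -0.31, and *Hapln1* -1.09 and -0.56. *Aplnr*, one of the steepest falls to PWK 7, went on by -1.94. *Grin2a*, with 9607, 10692, 12043 and 7929 at PWK 14, and *Pvalb*, with 572, 589.8, 454 and 622, were not called, at -0.21 and -0.07. The choroid plexus sums at PWK 14 were 74366, 3126, 29916 and 127982.

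The same ages were set against each other in *Cyfip2*+/- littermates, with no library in common. There, 10046 of 17055 genes tested (58.9%) were called. Of 16819 genes tested in both genotypes, 9900 were called in WT hippocampus and 9964 in *Cyfip2*+/- hippocampus, and 8520 were called in both with the same sign, which is 86.1% of the former and 85.5% of the latter. A further 2 were called with opposite signs. Of 1931 WT genes with at least 2-fold changes, 1812 (93.8%) were called with the same sign in *Cyfip2*+/- mice. *Mki67* changed by -2.60 in WT and -2.80 in *Cyfip2*+/- hippocampus, *Mbp* by 2.83 and 3.82, *Grin2a* by 1.05 and 1.37, *Pvalb* by 2.64 and 3.95, and *Hmgcs1* by -1.32 and -1.39. The myelin median was 2.89 in WT and 3.59 in *Cyfip2*+/- hippocampus, and that of cholesterol synthesis was -0.68 and -0.77. Differences between the genotypes were not tested here.

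Each WT library was then placed on the line from the PWK 1 mean to the PWK 7 mean of *Cyfip2*+/- hippocampus, with those means at 0 and 1 and choroid plexus genes left out. The 4 libraries of PWK 1 lay at 0.131, 0.182, 0.0435 and 0.0458, and those of PWK 7 at 0.946, 0.930, 0.966 and 0.908. The libraries of PWK 14 lay at 0.976, 0.915, 0.906 and 0.962, so that the older ages overlapped. In the WT cortex at PWK 1, placed on its own line, replicate 2 was also farthest along, at 0.246, followed by replicate 1 at 0.169, replicate 3 at 0.119 and replicate 4 at 0.0907.

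**Figure D5:**
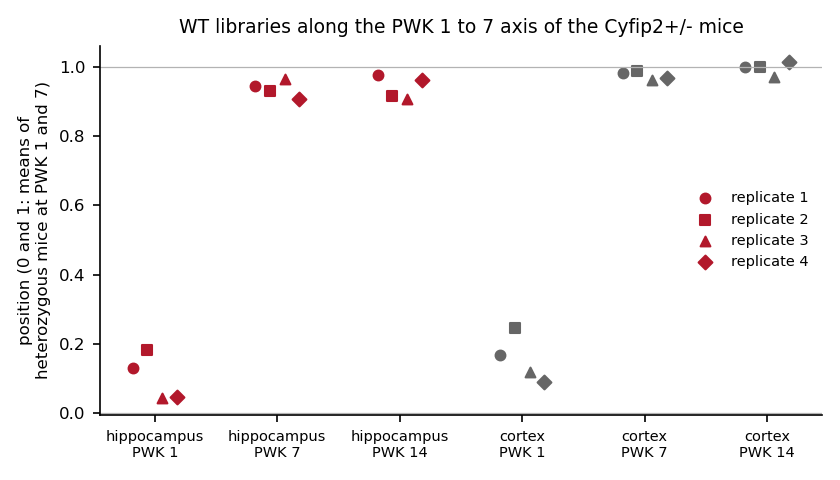
Position of each WT library along the line from the PWK 1 mean (0) to the PWK 7 mean (1) of *Cyfip2*+/- mice, by region and age, with a marker shape for each replicate number. Hippocampal libraries sit between 0.0435 and 0.182 at PWK 1 and between 0.906 and 0.976 at PWK 7 and 14.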

How the data were processed

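Bulk RNA sequencing was analysed for the 4 WT hippocampal libraries of PWK 1 and the 4 of PWK 7, with 20 further libraries for comparison and 48 in the table. Labels gave tissue, genotype, age and replicate number. Per the paper, the authors made paired-end reads, estimated transcript abundance with Salmon against GRCm38, and imported and normalized it with tximport and DESeq2. The authors' notes in the labels name a TruSeq stranded mRNA kit and Salmon 0.11.2, DESeq2 1.19.11 and R 3.6.0, while the paper names a total RNA kit and other versions. The authors deposited 1 table of 18428 genes whose unit is the normalized count, a linear signal that is neither whole nor divided by gene length, so fold changes are not affected by gene length but levels of different genes are not comparable. Estimates that split reads between near copies can move their values. Gene names and coordinates are from GENCODE vM21 on GRCm38, which matched 18414 identifiers and left 14.

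Because whole counts were not recovered, limma (version 3.58.1, R 4.3.3; lmFit and eBayes with a trend, two-sided) was run on log2(normalized count + 1), on genes with at least 10 in at least 4 libraries of the fit, and genes were called at an adjusted p (Benjamini-Hochberg) below 0.05. The pseudocount understates changes of low genes, and 1412 genes were not tested. The main fit held the 8 libraries alone. Region differences were an interaction contrast over 16 libraries. Log2 ratios of gene pairs within a library were tested by exact permutation. Depth before scaling was estimated from the spacing of low values of 3619 genes with a single transcript, of which 75.4% to 95.4% per library lay within 0.1 of whole multiples. Scripts were tested on simulated data.

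Named genes were the 10 protein-coding genes with the largest change in each direction (mean of at least 100), the 3 called members with the largest change in each direction of each list, all genes of the pairs, and the 8 genes with the smallest p in each direction of the region difference. A further 28 list members were named for their known role, with their values known. The members and lists were chosen with earlier results of these data known. Replicates are different mice. Same-numbered cortex and hippocampus were taken to come from the same mouse. Their deviations from the group means had mean correlations of 0.119 at PWK 1 and 0.122 at PWK 7, against -0.0398 and -0.0406 for other numbers. With mouse as a block the region difference had 3689 calls. Alternatives were other scalings, filters, pseudocounts and variance models, all 48 libraries in 1 model, a replicate block, and each library left out. The authors' own fold changes were not used. Some named genes are not reported here.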

Additional observations from a re-analysis of the deposited data

Results flagged for a closer look

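Some genes had a library far from the other 3 of its group by Dixon's test at the 95% level. This was so in 9 of 159 groups tested, where chance gives about 7.95. At PWK 1, *Slc17a6* was 1957 in replicate 1 and *Mkrn3* was 513 in replicate 2. At PWK 7, *Scn4b* was 788, *Ezh1* was 2803 and *Adcy1* was 38020 in replicate 2, and *Cyfip1* was 4312 in replicate 1. In replicate 4 of PWK 7, *Dsp* was 1754 and *Arc* was 7803, and in replicate 3 of PWK 14, *Dsp* was 2652 normalized counts. No explanation was tested for these values.

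The change from PWK 1 to PWK 7 differed between hippocampus and cortex for 2864 genes by the interaction contrast in limma. For the 16 genes with the smallest p, the hippocampal minus the cortical log2 change was positive for *C1ql2* (2.64), *Slc29a4* (2.40), *Doc2b* (1.95), *Olfml2b* (1.81), *Myo5b* (1.64), *Rfx3* (1.35), *Slit1* (1.18) and *Adcy1* (0.97). It was negative for *Rnf39* (-3.34), *Cbln2* (-2.21), *Plxdc1* (-1.99), *Igsf9b* (-1.82), *Ptgfrn* (-1.26), *Nell1* (-1.17), *Prkar1b* (-0.80) and *Tsnax* (-0.72). *Myo5b*, a myosin of vesicle transport, had 0.07 in hippocampus and -1.57 in cortex.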

How the results depend on the processing

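With the summed choroid plexus markers as a covariate, chosen after seeing the data, 3114 genes were higher and 3201 lower at PWK 7, and 168 differed between PWK 14 and PWK 7. At least 2-fold changes were called for 864 higher and 839 lower genes at PWK 7, and the covariate is confounded with age between PWK 1 and 7. The log2 change of *Ttr* was then -0.70, a value largely set by construction, since *Ttr* is part of the covariate. A filter on a mean of 50, which tests fewer genes, left 579 genes at least 2-fold higher and 621 at least 2-fold lower. Leaving out a library gave 4365 to 4819 higher and 4554 to 4890 lower genes. The comparison of PWK 14 with PWK 7 had 811 calls with all 48 libraries in 1 model and 16 to 111 when a library was left out, and the cause was not tested.

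Replicate numbers do not pair the ages, since the mice differ. The correlations of deviations of same-numbered libraries of PWK 1 and PWK 7 were -0.027 to 0.0353, and 2 of 4 libraries correlated best with their own number. With the replicate block, 4827 genes were higher and 4899 lower, and PWK 14 against PWK 7 had 11 calls. For the region difference, where numbers were taken to mark the same mouse, the block gave 3689 calls against 2864, and the 16 named differences kept their calls.

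Of 6372 alternative values for 320 named genes, 6256 kept the call or stayed uncalled, 100 lost and 15 gained the call, and 1 turned direction. The last count does not cover every change of sign in genes that were not called, such as *Grin2b*. Their small changes can turn sign when a library is left out. All 306 alternative values of the 34 ratios were counted as unchanged. Without 1 library the exact permutation test cannot give a p below 0.05, so this count does not show that calls were kept. Nor does it show a kept sign for ratios that hardly changed, such as that of *Cplx1* to *Cplx2*. Depth of 25.5 to 36.2 M reads limits genes near the minimum of 10, and 4 mice per age limit changes below the spread between mice.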

Other observations

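The 4 libraries of PWK 1 kept a common order over many genes. Among the 1978 genes with at least 2-fold changes, replicate 2 was the library nearest to PWK 7 for 870 genes (44.0%) and the farthest for 254 (12.8%), while replicates 3 and 4 were the farthest for 686 (34.7%) and 696 (35.2%). Among the 7063 genes not called, replicate 2 was nearest for 2042 (28.9%). Of the 29 myelin genes called, replicate 2 was nearest to PWK 7 for 21 (72.4%) and replicate 4 farthest for 23 (79.3%). The choroid plexus markers were high in both replicates 2 and 4, so that they did not follow this order. The labels give age in weeks only. No test of these shares was made, since genes of a library are not independent.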
